A study of Mus musculus with 9 samples.

Results

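Transcripts of 10 neutrophil markers, S100a8, S100a9, Retnlg, Csf3r, Ngp, Camp, Ltf, Elane, Mpo and Trem1, were followed in mouse liver across 3 genotypes. They are 10 of the 19938 genes that the arrays measured with a probe set of their own. The genes were chosen by name, as components of neutrophil granules, cytosol and surface, with earlier results of these data known. Each was measured by 1 probe set annotated to that gene alone. Whole liver of male mice of the C57/BL6 background, aged 8 to 9 weeks and kept on standard chow, was profiled on 9 arrays with 3 per group. The groups were wild type, mice lacking NEMO in hepatocytes only (NEMOΔhepa, here the NEMO knockout), and the progeny of that knockout crossed with mice lacking p21 in all cells. Neutrophils of both knockout groups therefore kept NEMO, and those of the double knockout lacked p21 by their label. What drives the deletion in hepatocytes is not given in the sources used here, and no group lacked p21 alone. Replicates are described as separate animals only through different identifiers, so the p-values measure the spread between these samples.

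Neutrophils are short-lived granulocytes made in bone marrow under the growth factor G-CSF. Their granule proteins are transcribed in stages: those of primary (azurophilic) granules, such as myeloperoxidase and elastase, in early precursors, and those of secondary (specific) granules, such as lactoferrin, cathelicidin and neutrophilic granule protein, in later ones. Mature cells in tissue keep little granule transcript but carry abundant S100a8, S100a9 and Retnlg mRNA and the receptor Csf3r. In injured liver, neutrophils enter through the sinusoids and can release proteases and oxidants. In whole tissue, fewer cells of a type and less RNA per cell cannot be told apart.

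The 9 arrays had median values between 6.47 and 6.58 (log2) and correlated at r = 0.986 to 0.996 across probe sets. Ikbkg, which encodes NEMO, was at -0.52 ± 0.11 (SE) in the NEMO knockout against wild type (limma adjusted p = 0.0184). Cdkn1a, which encodes p21, was not reduced in the double knockout: its only probe set, shared with 4930567H12Rik, averaged 8.67 ± 0.91 for wild type, 10.10 ± 0.53 for the NEMO knockout and 10.78 ± 0.56 for the double knockout (SD, n = 3). Cdkn1a was called higher in the double knockout than in wild type, by 2.11 ± 0.45 (SE; limma adjusted p = 0.0194). Its difference from the NEMO knockout, 0.68 ± 0.45, was not called (limma adjusted p = 0.803). Where its probes lie relative to the deleted part is not analysed here, so the third group is called the labelled double knockout and each direction drawn from it rests on that label. The 7 hepatocyte markers measured, albumin among them, lay above 98.3% of all probe sets on every array.

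The promoters of 4 of the genes are shown because the results turn on these genes: Csf3r and Retnlg were called between genotypes, and Ngp and S100a8 were high in a single animal. Each line holds the 250 bases before the transcription start from the RefSeq promoter table (GRCm38.p6), 5′ to 3′ on the gene's strand. Capitals mark matches to the C/EBP core TTNNGNAA or the PU.1 core GAGGAA on either strand. C/EBP factors and PU.1 direct transcription in granulocytes and other myeloid cells.
S100a8, chr3:90668821-90669070, plus strand: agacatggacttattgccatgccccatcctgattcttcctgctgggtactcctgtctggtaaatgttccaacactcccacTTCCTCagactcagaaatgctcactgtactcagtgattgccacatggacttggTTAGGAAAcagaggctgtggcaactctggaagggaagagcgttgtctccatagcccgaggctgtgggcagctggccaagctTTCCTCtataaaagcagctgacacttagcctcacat
Ngp, chr9:110419558-110419807, plus strand: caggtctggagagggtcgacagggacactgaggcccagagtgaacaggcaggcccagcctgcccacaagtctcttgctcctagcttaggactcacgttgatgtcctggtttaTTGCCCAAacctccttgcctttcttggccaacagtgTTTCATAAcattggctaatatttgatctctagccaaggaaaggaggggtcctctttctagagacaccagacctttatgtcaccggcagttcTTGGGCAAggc
Retnlg, chr16:48872358-48872607, plus strand: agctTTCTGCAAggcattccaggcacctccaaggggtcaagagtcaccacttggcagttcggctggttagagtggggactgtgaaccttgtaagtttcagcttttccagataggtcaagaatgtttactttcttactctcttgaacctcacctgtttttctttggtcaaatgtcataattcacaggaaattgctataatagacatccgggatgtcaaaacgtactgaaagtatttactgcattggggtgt
Csf3r, chr4:126024409-126024658, plus strand: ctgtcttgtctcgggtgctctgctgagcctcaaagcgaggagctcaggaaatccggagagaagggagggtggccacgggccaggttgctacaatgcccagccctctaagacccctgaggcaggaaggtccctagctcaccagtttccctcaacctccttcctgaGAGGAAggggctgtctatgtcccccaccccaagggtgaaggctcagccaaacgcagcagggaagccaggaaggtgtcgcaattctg

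In these windows the S100a8 promoter held 1 C/EBP core and 2 PU.1 cores, that of Ngp 3 C/EBP cores, that of Retnlg 1 C/EBP core and that of Csf3r 1 PU.1 core. All 10 genes matched an entry in the promoter table by symbol. A C/EBP core stood in 6 of the 10, against 36.8% of 32851 mouse promoters, and a PU.1 core in 6, against 23.3%. Both occurred in 3, S100a8, Ltf and Trem1, against 8.87%, and Camp alone had neither. The 2 motifs did not overlap in any printed sequence. A match is a string of letters and not a shown binding site. S100a8 and S100a9 are neighbours on chromosome 3 with 0 protein-coding genes between them, and Ngp, Camp and Ltf all lie on chromosome 9.

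Against wild type, livers lacking NEMO in hepatocytes had higher Csf3r, the G-CSF receptor, and higher Retnlg, a secreted resistin-like protein of neutrophils. Csf3r rose 1.60-fold and Retnlg 1.70-fold, while the other 8 markers did not pass. Transcripts of the primary granule proteins Elane and Mpo and of the secondary granule proteins Camp and Ltf lay within 0.07 (log2) of wild type on average. Of the 10 markers 2 were called, compared with 7.68% of all 28939 probe sets tested, and both were higher, compared with 5.66% of probe sets called higher. Groups did not overlap for the same 2 markers, against 23.2% of all probe sets. The share of higher among all calls was 73.7% with the values as deposited and 52.7% once array medians were set equal. The 10 differences had a median of 0.17, and all probe sets one of -0.04. All 10 were above 0 as deposited, and 7 with the arrays centred, where Camp, Ltf and Elane turned below 0.

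**Figure D1:**
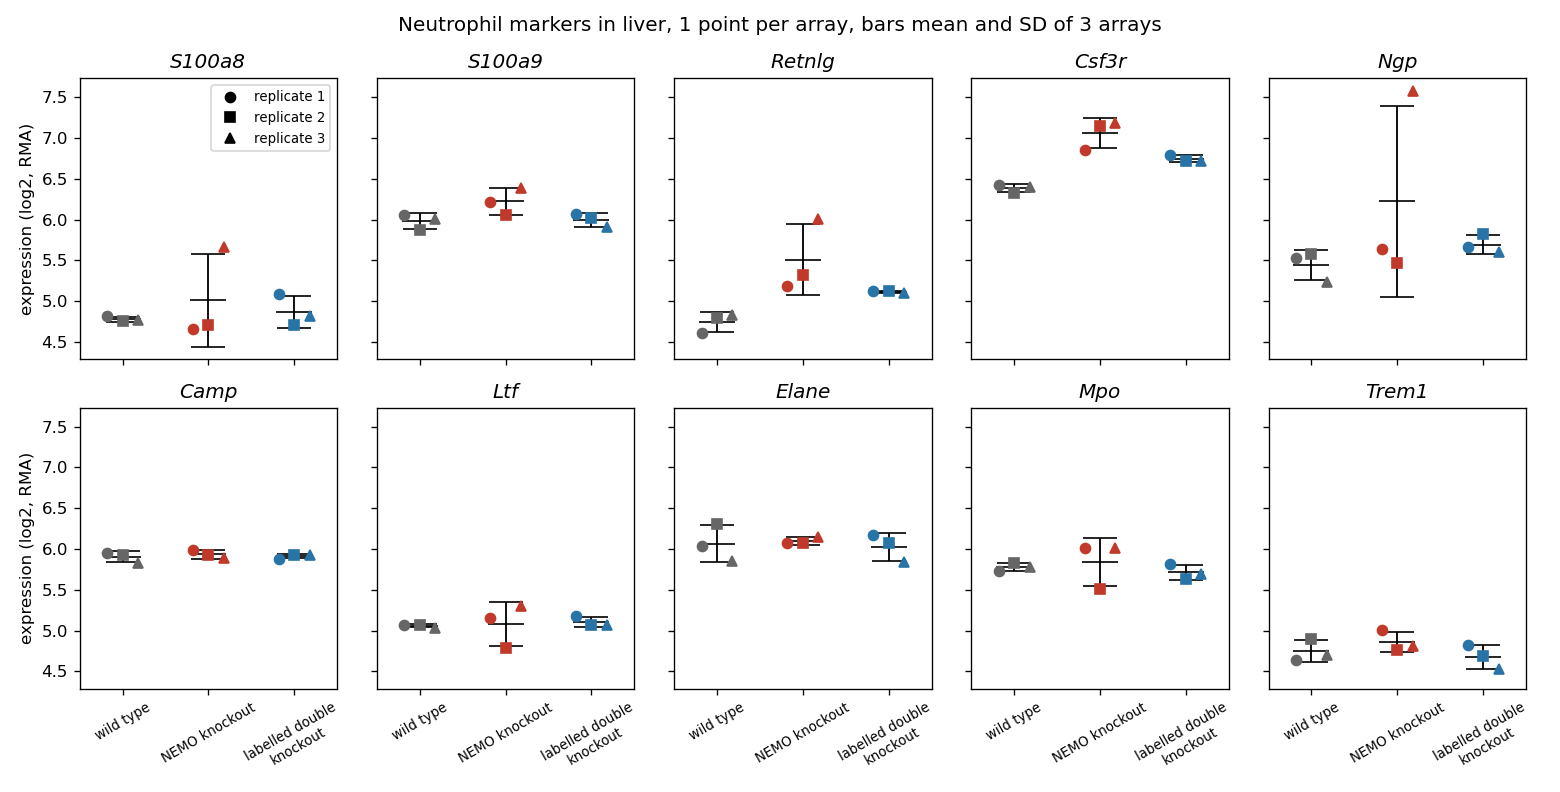
Expression of the 10 neutrophil markers (y axis, log2 RMA value) in wild type, NEMO knockout and labelled double knockout liver (x axis), with 1 point per array, its shape showing the replicate number, and bars for the mean and SD of 3 arrays. NEMO knockout replicate 3 stands above the other 8 arrays for Ngp (7.58), Retnlg (6.004) and S100a8 (5.67), among others. Csf3r and Retnlg each separate all 3 groups.

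Among the surface receptors, Csf3r separated the genotypes without overlap. Csf3r stood at 6.43, 6.33 and 6.40 on wild type arrays 1 to 3, at 6.85, 7.15 and 7.18 on those of the NEMO knockout and at 6.80, 6.72 and 6.72 on those of the labelled double knockout (log2). All NEMO knockout values were above all others, and all wild type values below. The NEMO knockout exceeded wild type by 0.68 ± 0.09 (SE; limma adjusted p = 0.00207), and leaving out any 1 of the 9 arrays kept the difference between 0.62 and 0.78 and past the threshold. The labelled double knockout exceeded wild type by 0.36 ± 0.09 (adjusted p = 0.0346), a call that ended when any of the 3 arrays of either group was left out (adjusted p up to 0.110). It also ended with the replicate block (0.0559), on centring (0.0927), on a second quantile normalisation (0.0514) and when control probe sets were kept in the fit (0.0568). Replicates 2 and 3 of the labelled double knockout had the very same value, which median polish can produce and which makes the spread of that group look smaller.

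Trem1 is a receptor of neutrophils and monocytes that amplifies inflammatory signals. Trem1 stood at 4.64, 4.90 and 4.70 on wild type arrays, at 5.004, 4.76 and 4.81 on those of the NEMO knockout and at 4.82, 4.69 and 4.52 on those of the labelled double knockout (log2). The 3 groups overlapped, and the difference of the NEMO knockout from wild type was 0.11 ± 0.10 (adjusted p = 0.604). Its 95% interval, from -0.12 to 0.35, does not reach the size of the Csf3r difference.

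S100a8 and S100a9 form the calcium-binding heterodimer calprotectin, the most abundant cytosolic protein of neutrophils, also made by monocytes. S100a8 stood at 4.82, 4.76 and 4.77 on wild type arrays, at 4.66, 4.71 and 5.67 on those of the NEMO knockout and at 5.09, 4.70 and 4.81 on those of the labelled double knockout (log2). Only NEMO knockout replicate 3 stood out, and replicates 1 and 2 of that group were below every wild type array. The mean difference of 0.23 ± 0.23 from wild type (adjusted p = 0.642) became -0.10 without that replicate.

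For S100a9 the wild type arrays read 6.06, 5.87 and 6.003, the NEMO knockout 6.22, 6.06 and 6.39 and the labelled double knockout 6.07, 6.02 and 5.90 (log2). The highest value was again NEMO knockout replicate 3, but the groups touched, since NEMO knockout replicate 2 and wild type replicate 1 had the very same value. S100a9 was at 0.24 ± 0.09 in the NEMO knockout against wild type, which did not pass over all probe sets (unadjusted p = 0.0289; limma adjusted p = 0.181). Without replicate 3 the difference was 0.16.

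Retnlg stood at 4.61, 4.79 and 4.83 on wild type arrays, at 5.19, 5.32 and 6.004 on those of the NEMO knockout and at 5.12, 5.12 and 5.10 on those of the labelled double knockout (log2). The groups did not overlap in any of the 3 comparisons, though labelled double knockout and NEMO knockout lay close at 5.12 and 5.19. The NEMO knockout exceeded wild type by 0.76 ± 0.18 (adjusted p = 0.0309). Without NEMO knockout replicate 3 the difference was 0.51 and still passed (adjusted p = 0.0144). The call ended when control probe sets were kept in the fit (0.0572), without any 1 of the wild type arrays or without labelled double knockout replicate 3 (adjusted p up to 0.106) and with only those groups in the fit (0.0871). The labelled double knockout was at 0.37 ± 0.18 from wild type (adjusted p = 0.281), a difference that passed in a fit without NEMO knockout replicate 3 (0.0221) or with wild type and the labelled double knockout alone (0.0285).

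Ngp, Camp and Ltf encode secondary granule proteins, and none of them was called. Ngp, a cathelicidin-related granule protein of late precursors, stood at 5.53, 5.57 and 5.24 on wild type arrays, at 5.64, 5.46 and 7.58 on those of the NEMO knockout and at 5.66, 5.82 and 5.60 on those of the labelled double knockout (log2). NEMO knockout replicates 1 and 2 lay near wild type, whereas replicate 3 was higher than their mean by 2.03. Over all 28939 probe sets 3 had a larger gap between that array and the mean of the other two of its group. The Ngp difference from wild type was 0.78 ± 0.45 (adjusted p = 0.39) with all arrays and 0.10 without replicate 3.

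Camp, which encodes the antimicrobial cathelicidin, spanned 0.15 (log2) over the 9 arrays, from 5.83 to 5.98. Its difference in the NEMO knockout was 0.03 ± 0.06 with a 95% interval from -0.11 to 0.17. Ltf, the iron-binding lactoferrin, stood at 5.07, 5.07 and 5.03 on wild type arrays, at 5.15, 4.79 and 5.30 on those of the NEMO knockout and at 5.17, 5.07 and 5.07 on those of the labelled double knockout. The NEMO knockout values of Ltf thus spread to both sides of wild type, with a difference of 0.02 ± 0.12 (adjusted p = 0.944). Both genes had 1 value repeated on 4 of the 9 arrays, so their SDs say little about biological spread.

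Of the primary granule genes, Elane, the neutrophil elastase, stood at 6.04, 6.31 and 5.85 on wild type arrays, at 6.07, 6.07 and 6.15 on those of the NEMO knockout and at 6.17, 6.07 and 5.84 on those of the labelled double knockout (log2). Its highest array was a wild type one, and the NEMO knockout difference was 0.03 ± 0.12 (95% interval -0.24 to 0.31). Mpo, the oxidant-producing myeloperoxidase, stood at 5.73, 5.82 and 5.77 on wild type arrays, at 6.01, 5.51 and 6.01 on those of the NEMO knockout and at 5.82, 5.63 and 5.69 on those of the labelled double knockout. The NEMO knockout again held both the highest and the lowest Mpo values, with a difference of 0.07 ± 0.13 (95% interval -0.22 to 0.36). For these genes changes of the size seen in Csf3r fall outside the intervals, as far as the probe sets respond. The arrays carry no detection call, and 8 of the 10 markers were below the array median on all 9 arrays, which limits what a flat value shows.

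One animal held the highest values of several markers. NEMO knockout replicate 3 was the single highest of the 9 arrays for 6 of the 10 markers (S100a8, S100a9, Retnlg, Csf3r, Ngp and Ltf), compared with 9.65% of all probe sets. Its gap to the mean of replicates 1 and 2 was 0.99 for S100a8 and 0.75 for Retnlg, gaps exceeded by 0.149% and 0.404% of probe sets. For Csf3r the gap was 0.18, exceeded by 10.6%. Of 47 other neutrophil genes the array was highest for 11 (23.4%), and NEMO knockout replicates 1 and 2 were each highest for 8 (17.0%). Over all probe sets replicate 1 was highest for 14.2% and replicate 2 for 8.79%. Among the 19 other surface receptors replicate 2 was highest for 6 and replicate 3 for 3. Lcn2, of the granule proteins, was highest in replicate 3, at 10.82 against 9.37 and 10.12 in replicates 1 and 2. Replicate 3 was also highest for 4 of 5 NADPH oxidase genes and for 3 of 6 receptors for calprotectin and granule proteins. It was highest for 0 of 5 platelet and 0 of 7 hepatocyte markers. For monocyte and macrophage markers it was highest for 5 of 14 and for those of T, NK and B cells for 5 of 11. The part of those cells in the result was not tested. After removal of the group means, S100a8 and Ngp correlated at r = 0.91, S100a8 and Retnlg at 0.89, and Retnlg and Ngp at 0.91 over the 9 arrays. Over the 8 arrays without that animal these values were -0.26, -0.05 and -0.51, so the likeness rested on it. The pair Ltf and Mpo kept its likeness (0.94 with all arrays, 0.97 without).

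**Figure D2:**
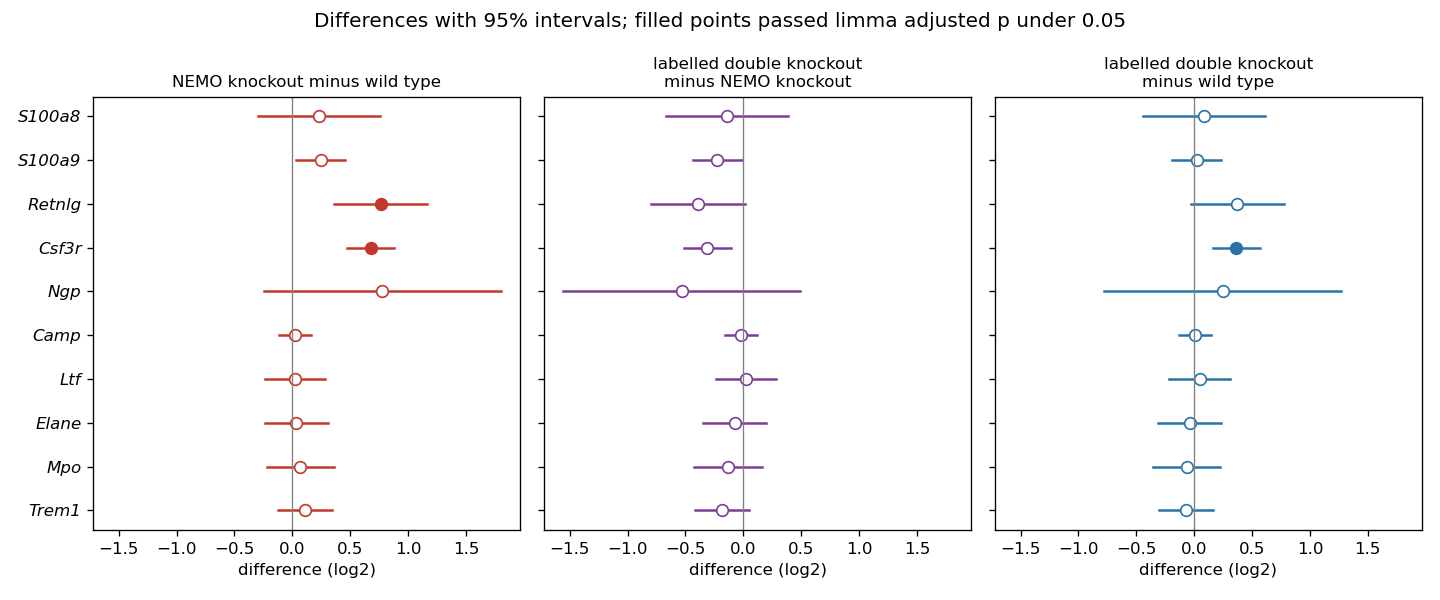
Difference between groups (x axis, log2) for each of the 10 neutrophil markers (y axis) in the 3 comparisons, with 95% intervals from limma; filled points passed at an adjusted p under 0.05. Csf3r and Retnlg passed in the NEMO knockout against wild type, Csf3r alone in the labelled double knockout against wild type, and none between the knockout groups.

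The comparison of the knockout groups asks what p21 loss adds to NEMO loss. No marker passed, and only 0.197% of all probe sets did. At an unadjusted p under 0.05 there were 2, Csf3r and S100a9, both lower in the labelled double knockout, and 7.46% of all probe sets had such a p. Csf3r was at -0.31 ± 0.09 (unadjusted p = 0.00674; limma adjusted p = 0.372), and all 3 of its values were below all 3 of the NEMO knockout. S100a9 was at -0.22 ± 0.09 (adjusted p = 0.643), Retnlg at -0.39 ± 0.18 (adjusted p = 0.677; groups not overlapping) and Ngp at -0.53 ± 0.45 (adjusted p = 0.861). Groups did not overlap for 2 of the 10 markers, against 10.7% of all probe sets. The median over the markers was -0.16, with 9 of 10 below 0, and over all probe sets 0.003. Without NEMO knockout replicate 3 the S100a8 and Ngp differences turned to 0.19 and 0.14 and the median of the markers was -0.05. These values share the NEMO knockout arrays with the comparison against wild type, so they are no independent reading of the same animals.

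Against wild type, the labelled double knockout had 1 of 10 markers called, Csf3r, compared with 9.32% of all probe sets called and 5.81% called higher. The other markers ranged from -0.07 for Trem1 to 0.37 for Retnlg. The median of the markers was 0.03, and all probe sets had one of -0.03. The groups did not overlap for Csf3r, Retnlg and Ngp, 3 of 10 against 25.1% of all probe sets. The sign of the median varied with scaling and with the arrays used. As deposited 7 of 10 markers were above 0, and with the arrays centred 4 were, where the median was -0.03. With 1 array left out the median ran from -0.0028 to 0.065.

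Other neutrophil genes were read from further lists. In the NEMO knockout against wild type 5.66% of all probe sets were called higher and 7.68% in either direction. In the labelled double knockout against wild type these shares were 5.81% and 9.32%. The counts for each list below are to be set beside them. Of 15 other granule protein genes 5 rose in the NEMO knockout and none fell, with a median of 0.15. They were Lcn2, the siderophore-binding lipocalin (2.19 ± 0.37, adjusted p = 0.0064), the lysozyme Lyz2 (1.25 ± 0.12), the granule membrane tetraspanin Cd63 (0.98 ± 0.18), the protease Adam8 (0.73 ± 0.07) and the primary granule protease Prtn3 (0.34 ± 0.09, adjusted p = 0.0462). Lcn2 is also made by hepatocytes, Lyz2 by macrophages and Cd63 by many cell types. Which cells carried these transcripts, or that of Adam8, was not tested. In the labelled double knockout 5 of the 15 were called higher than in wild type, compared with 5.81% of all probe sets. Among them were Lcn2, Lyz2, Cd63 and Adam8, whose calls there held under all 19 alternatives. The gelatinase Mmp9 was at -0.53 ± 0.14 in the labelled double knockout against wild type and was the 1 of 15 that fell there (adjusted p = 0.0386). The Prtn3 call ended under 13 of 18 alternatives (adjusted p up to 0.145) and that of Mmp9 under 9 of 18 (up to 0.136). Prtn3, Mmp9, the neutrophil collagenase Mmp8 (0.27 ± 0.07, adjusted p = 0.0508) and the genes Cxcr2 and Ly6g below were singled out after their values were seen.

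Of 19 other surface receptor genes measured, 5 rose in the NEMO knockout, compared with 5.66% of all probe sets, and none fell (median 0.30). The largest increases were those of the integrin subunit Itgb2 (1.06 ± 0.10), the Fc receptor Fcgr4 (1.01 ± 0.18) and the selectin ligand Selplg (0.98 ± 0.08), all shared with macrophages. In the labelled double knockout 7 of the 19 were called higher than in wild type, compared with 5.81% of all probe sets. The calls of Itgb2 and Selplg there held under all 19 alternatives, whereas that of Fcgr4 ended under 9. The anaphylatoxin receptor C5ar1 passed in the labelled double knockout against wild type (0.84 ± 0.21, adjusted p = 0.0376), a call that ended under 10 of 19 alternatives (up to 0.130). The receptors Cxcr2 and Ly6g, more restricted to neutrophils, did not pass. Cxcr2, the receptor of neutrophil-attracting chemokines, stood at 4.15, 4.21 and 3.96 on wild type arrays, at 4.31, 4.95 and 5.11 on those of the NEMO knockout and at 4.11, 4.18 and 3.92 on those of the labelled double knockout (log2). All NEMO knockout values of Cxcr2 were above all others, at 0.68 ± 0.18 from wild type (adjusted p = 0.0558; past the threshold under 4 of 18 alternatives), and the labelled double knockout was at -0.72 ± 0.18 from the NEMO knockout (adjusted p = 0.272). Ly6g, a surface marker of mouse neutrophils, was at 0.23 ± 0.09 in the NEMO knockout (adjusted p = 0.202).

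All 5 measured genes of the NADPH oxidase, the oxidant-producing enzyme of phagocytes, rose in the NEMO knockout (median 0.62), against 5.66% of all probe sets. Cybb read 8.87, 8.98 and 8.98 in wild type and 10.19, 10.17 and 10.55 in the NEMO knockout, a difference of 1.36 ± 0.11 (adjusted p = 0.00025). Cyba was at 1.24 ± 0.09, Ncf4 at 0.62 ± 0.10 and Rac2 at 0.62 ± 0.09. In the labelled double knockout 4 of the 5 were higher than in wild type. Of 13 other neutrophil transcripts only Anxa1, an anti-inflammatory lipid-binding protein, rose (1.03 ± 0.24), a call lost under 5 of 18 alternatives (adjusted p up to 0.106). In the labelled double knockout Hdc, the histamine-forming enzyme, was at 0.40 ± 0.09 and Wfdc21 at -0.47 ± 0.13 against wild type. Both were called, that of Hdc losing its call under 6 of 19 alternatives (adjusted p up to 0.0925) and that of Wfdc21 under 14 of 19 (up to 0.143).

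Relatives of the markers were read as well. In the S100 family S100a11 rose by 1.92 ± 0.15 in the NEMO knockout and S100a10 by 0.57 ± 0.13, and the other 10 genes measured did not pass. The S100a10 call ended under 5 of 19 alternatives (adjusted p up to 0.102). None of the 3 other resistin-like genes passed limma in any comparison and at an unadjusted p under 0.05 there were 0. Of the TREM family and its adaptors 3 of 7 rose, compared with 5.66% of all probe sets. They were the macrophage receptor Trem2 (1.0004 ± 0.10), Treml4 (0.59 ± 0.11) and the signalling adaptor Tyrobp (1.11 ± 0.09), through which Trem1 signals as well. Of 6 receptors for calprotectin and granule proteins, the ATP-gated channel P2rx7 rose (0.53 ± 0.09), and Tlr4 passed in the labelled double knockout (0.64 ± 0.15), a call lost under 6 of 18 alternatives (adjusted p up to 0.100).

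Of 18 neutrophil attractants and growth factors, Ccl3 (1.68 ± 0.26) and the adhesion molecule Icam1 (0.49 ± 0.09) rose in the NEMO knockout and none fell (median 0.04). Cxcl12, which holds neutrophils in bone marrow, was lower in the labelled double knockout than in wild type (-0.31 ± 0.07, adjusted p = 0.0291), a call lost under 6 of 19 alternatives (up to 0.102). Of 10 transcription factors of granulocytes and other myeloid cells, Runx1 (1.07 ± 0.13), Spi1, which encodes PU.1 (1.005 ± 0.10), and Irf8 (0.90 ± 0.10) rose in the NEMO knockout. Which cells carried these transcripts was not tested. Cebpe, the C/EBP factor of secondary granule genes, stood at 5.64, 5.90 and 5.98 on wild type arrays, at 6.14, 5.93 and 5.83 on those of the NEMO knockout and at 6.68, 6.86 and 6.67 on those of the labelled double knockout (log2). Cebpe was higher in the labelled double knockout than in the NEMO knockout by 0.77 ± 0.11 (adjusted p = 0.0348), whereas Ngp, Camp and Ltf were not called there. That call ended under 11 of 18 alternatives (adjusted p from 0.0222 to 0.167). Against wild type, 4 of the 10 factors were called higher in the labelled double knockout, namely Runx1, Spi1, Irf8 and Cebpe. None of those calls was lost under any alternative, and for Cebpe the limma adjusted p was at most 0.00622.

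**Figure D3:**
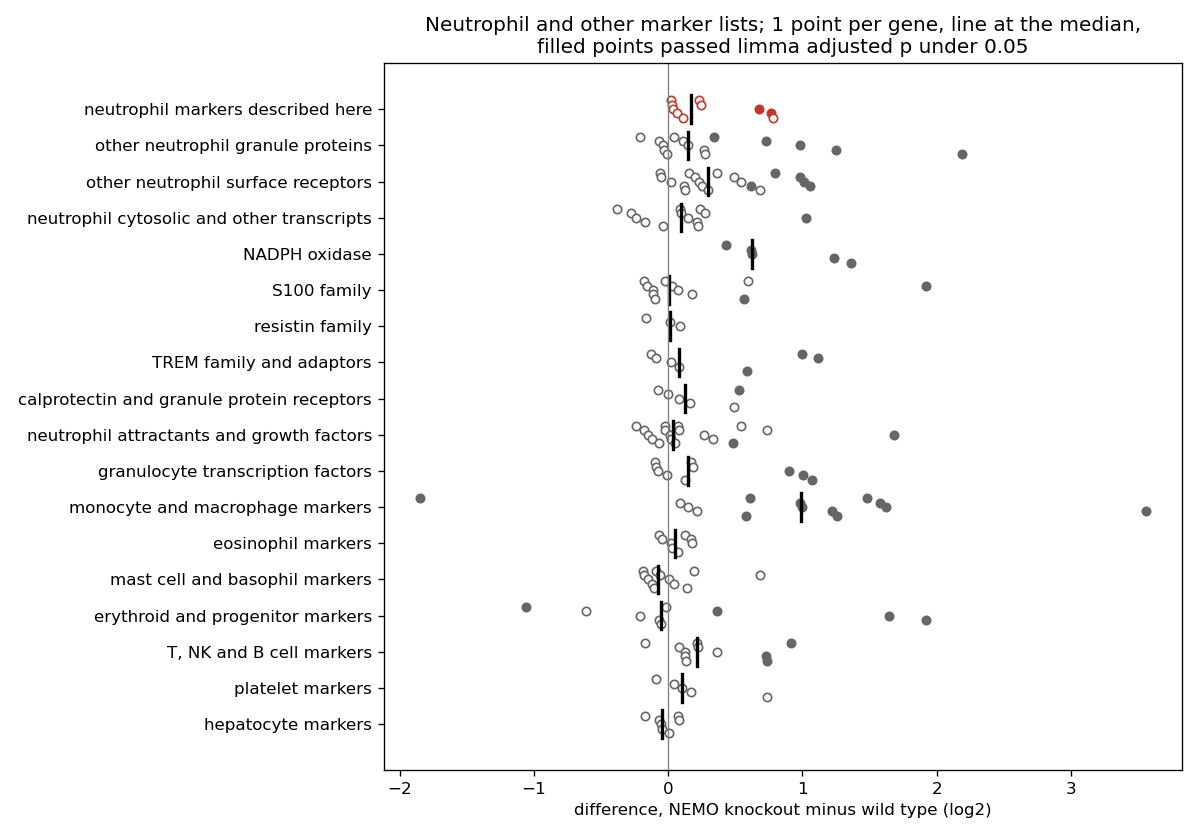
Difference of NEMO knockout from wild type (x axis, log2) for each gene of the marker lists (y axis), with a black line at each list's median and filled points for genes that passed limma at an adjusted p under 0.05. The 10 neutrophil markers (red) have a median of 0.17 with 2 filled, the NADPH oxidase genes one of 0.62 with 5 of 5 filled, and the monocyte and macrophage markers one of 0.99.

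Other leukocyte markers moved in the same samples. Of 14 monocyte and macrophage markers 10 rose and 1, Cd163, fell in the NEMO knockout (median 0.99), and the counts were the same in the labelled double knockout. Over all probe sets 7.68% and 9.32% were called in these comparisons. Gpnmb was at 3.56 ± 0.15, Itgax at 1.62 ± 0.17 and Ms4a6c at 1.58 ± 0.11. The summed signal of that list, on the linear scale, was 2943 to 3256 in wild type, 5148 to 5796 in the NEMO knockout and 5282 to 5738 in the labelled double knockout. The sum over the 10 neutrophil markers was 470.1 to 501.6, 547.6 to 797.0 and 503.0 to 549.6 in the same order. The upper end of the NEMO knockout range came from replicate 3, the animal with the Ngp value of 7.58 (log2). Monocytes also express Csf3r, Trem1, S100a8 and S100a9, and their part in these values was not tested. Of 11 markers of T, NK and B cells, Cd3g (0.91 ± 0.18), Nkg7 (0.73 ± 0.17) and Ncr1 (0.73 ± 0.12) rose in the NEMO knockout, the Nkg7 call ending under 7 of 19 alternatives (adjusted p up to 0.112) and that of Cd3g under 2 of 18 (up to 0.0532). In the labelled double knockout limma called 0 of 11 against wild type, compared with 9.32% of all probe sets. At an unadjusted p under 0.05 there was 1, compared with 6068 of all 28939 probe sets. Between the knockout groups limma called 0 of 11, and the median was -0.21. There 4 had an unadjusted p under 0.05, compared with 7.46% of all probe sets. The summed signal of these 11 markers was 575.8 to 589.6 in wild type, 676.0 to 835.8 in the NEMO knockout and 575.5 to 635.3 in the labelled double knockout.

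Eosinophil (8 measured), mast cell and basophil (12) and platelet (5) markers had no gene called by limma in any comparison, with 0, 3 and 1 at an unadjusted p under 0.05 in the NEMO knockout against wild type. Among 9 erythroid and progenitor markers the proliferation marker Mki67 (1.92 ± 0.32), Cd34 (1.65 ± 0.20) and the progenitor receptor Flt3 (0.36 ± 0.09) rose and Alas2, of erythroid haem synthesis, fell by 1.06 (log2). The Flt3 call ended under 9 of 18 alternatives (adjusted p up to 0.119). Cd34 is also a marker of endothelium and Mki67 of any dividing cell.

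Over the 9 arrays the genes whose profile was most like that of Csf3r, among 18614 others left after clone names and predicted loci were set aside, were Slc44a2 (Pearson r = 0.992), Myo1g (0.982) and Pik3cd (0.980). For Retnlg they were Ncam1 (0.982), Itga4 (0.978) and Tmem164 (0.967). The arrays fall into 3 genotypes and share their normalisation, so these correlations are a description of profiles. Csf3r and Retnlg correlated with each other at 0.89, and the closest pair of markers was S100a8 and Ngp at 0.904.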

How the data were processed

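RNA from 9 livers was hybridised to single-channel Affymetrix gene arrays. The deposited table holds log2 expression values made by the authors with RMA (background correction, quantile normalisation, median polish), per the submitters' processing notes; the log base was taken from RMA and the range of the values, while versions, build and filters are not stated by them. Of 35556 probe sets, 6617 with identifiers below the first annotated one were taken to be controls and left out. Of the 28939 tested, 21789 have 1 gene symbol, 1621 several and 5529 none, and symbols were updated by gene identifier for 21698 from the NCBI gene table of GRCm38.p6. limma 3.58.1 in R 4.3.3 fitted 1 mean per group on all 9 arrays (lmFit, eBayes), with Benjamini-Hochberg adjustment over all probe sets tested; calls are at an adjusted p under 0.05. For genes with several probe sets the brightest over all arrays was used. Named are all 10 markers, up to 4 called genes per list with the largest difference, and for each called marker the 3 most similar profiles; genes outside this rule are marked. The markers and lists were chosen with earlier results of these data known. The script was tested on simulated data. Array number, not read depth, limits the precision. Alternatives comprised other normalisations, error models, filters, a replicate block and each array left out.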

Additional observations from a re-analysis of the deposited data

How the results depend on the processing

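In each comparison 10 alternatives were run beside leaving out each of the 9 arrays. Between NEMO knockout and wild type the called markers were 1 in place of 2 when control probe sets were kept, with only those groups in the fit, and among probe sets brighter than the median, where Retnlg is not tested; with arrays left out there were 1 to 2. Between labelled double knockout and wild type there were 0 in place of 1 with control probe sets, centring, a second quantile normalisation and the replicate block, 2 with only those groups, and 0 to 2 with arrays left out; the median of the markers was -0.031 on centring. With arrays left out the calls over all probe sets ran from 1382 to 2335 (NEMO knockout against wild type), 10 to 44 (between the knockouts) and 1601 to 2720 (labelled double knockout against wild type). Between the knockouts they were 57, and 28 with control probe sets, 31 on centring and with the mean of a gene's probe sets, 23 with only those groups and 18 with the replicate block. Same-numbered samples deviated together to differing degrees (r from -0.12 to 0.39). Between the knockout groups r was 0.39, 0.083 and 0.25 for replicates 1 to 3. Such correlations over few arrays cannot show whether the numbers pair the animals. The block ended the Csf3r call in the labelled double knockout (limma adjusted p = 0.0559) and no other call among the 10 markers.

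Signs turned only for differences that were not called, and the cause was not tested. In the NEMO knockout against wild type, centring gave Camp -0.036, Elane -0.028 and Ltf -0.040, and array weights gave Ltf -0.028 and Mpo -0.0010. Between the knockouts a second quantile normalisation gave Ltf -0.0083. In the labelled double knockout against wild type, centring gave Camp -0.057, Ltf -0.017 and S100a9 -0.044, a second quantile normalisation gave Camp -0.021 and S100a9 -0.011, and array weights gave S100a9 -0.016. With arrays left out, the first comparison spanned -0.011 to 0.051 for Camp, -0.074 to 0.15 for Elane, -0.090 to 0.17 for Ltf, -0.017 to 0.24 for Mpo and -0.10 to 0.41 for S100a8. The second spanned -0.043 to 0.0069 for Camp, -0.14 to 0.020 for Elane, -0.12 to 0.14 for Ltf, -0.91 to 0.14 for Ngp and -0.32 to 0.19 for S100a8. The third spanned -0.029 to 0.032 for Camp, -0.15 to 0.081 for Elane, -0.021 to 0.17 for S100a8, -0.034 to 0.067 for S100a9 and -0.14 to 0.0082 for Trem1. Of 70 calls of the other named genes, 52 held under every alternative run for them and 18 were lost under at least 1, that of Wfdc21 most often (14 of 19).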
